A study of Mus musculus with 9 samples.

Results

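The 10 genes described here are the NF-kappaB subunit genes Nfkb1, Nfkb2, Rel, Rela and Relb, the feedback inhibitor genes Nfkbia, Nfkbie, Nfkbiz and Tnfaip3, and Tnf, which encodes the cytokine tumor necrosis factor. They were chosen by name, with earlier results of these data known, and are 10 of the 31053 genes in the count matrices. Each had at least 1 unique molecular identifier (UMI, a tag that marks 1 captured RNA molecule). Single-cell RNA sequencing was performed on live CD11b+ cells sorted from the brains, without cerebellum, of female C57BL/6 mice aged 5 months (C57BL/6J in the study's methods). Untreated mice (Ctrl) gave 3 libraries of 1 brain each. Mice fed chow with the CSF1R inhibitor PLX5622 at 1200 mg/kg for 14 days (D0) gave 3 libraries of 2 pooled brains, and mice given the same chow and then control diet for 2 days (D2) gave 3 libraries of 2 pooled brains, of which D2-1 and D2-2 were used. PLX5622 blocks the receptor that microglia need to survive, so that D0 holds the cells left after depletion and D2 the first days of repopulation. A Ctrl library differed from a treated library in the drug, in the number of brains and in part in the version of the counting software, and pooled brains count as 1 sample.

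NF-kappaB transcription factors are dimers of 5 related subunits that IkappaB proteins hold in the cytoplasm. Signals from cytokine receptors and Toll-like receptors lead to the breakdown of the inhibitors, the dimers enter the nucleus and bind kappaB sites, and among their first target genes are those of their own inhibitors, which end the response. In microglia, the resident macrophages of the brain, this pathway drives Tnf, Il1b and chemokine genes, and the transcripts of several feedback genes also rise within minutes to hours when cells are taken from tissue.

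Promoter sequences were available for 7 of the 10 genes in the RefSeq-based table of build GRCm38.p6. They are shown for the kappaB letters they hold, and regulation through these windows was not tested. The kappaB consensus (GGG, a purine, any 2 bases, 2 pyrimidines, then CC) was searched on both strands from 250 bases before to 50 bases after each start. It was found in windows of Nfkb2, Nfkbia, Nfkbie, Rel and Tnfaip3, and in 8.46% of all 32851 promoter windows of the same length. Capitals mark a match on either strand, and matches may overlap. All sequences are written 5′ to 3′ along the gene's own strand, and pieces of 30 bases are given where the window runs into the annotated gene.
Nfkbia, encoding IkappaB alpha, chr12:55492648-55492897, minus strand: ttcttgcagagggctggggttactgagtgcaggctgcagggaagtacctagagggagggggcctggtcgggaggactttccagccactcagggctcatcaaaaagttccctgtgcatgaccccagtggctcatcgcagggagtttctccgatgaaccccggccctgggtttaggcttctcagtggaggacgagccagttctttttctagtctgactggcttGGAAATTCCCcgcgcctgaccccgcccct
Nfkbie, encoding IkappaB epsilon, chr17:45555450-45555699, plus strand: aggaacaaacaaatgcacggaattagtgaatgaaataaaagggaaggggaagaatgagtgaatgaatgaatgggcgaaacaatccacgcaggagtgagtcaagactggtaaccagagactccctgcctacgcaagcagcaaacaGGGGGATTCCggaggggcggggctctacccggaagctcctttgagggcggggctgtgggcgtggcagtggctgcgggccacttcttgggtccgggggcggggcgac
Rel, encoding the subunit c-Rel, chr11:23770971-23771219, minus strand: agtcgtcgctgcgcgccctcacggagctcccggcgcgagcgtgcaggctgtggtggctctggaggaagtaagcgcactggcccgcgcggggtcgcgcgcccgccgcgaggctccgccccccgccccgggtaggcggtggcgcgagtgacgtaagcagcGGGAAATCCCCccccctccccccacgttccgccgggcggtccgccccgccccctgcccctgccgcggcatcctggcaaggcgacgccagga
Nfkb2, encoding the precursor of a noncanonical subunit, chr19:46304707-46304736, plus strand, with the end of another match in its first bases: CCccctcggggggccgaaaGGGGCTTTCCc
Nfkb2, at another annotated start, chr19:46305695-46305724, plus strand: tggtattttcGGGACTTTCCtaagcagcac
Tnfaip3, encoding a ubiquitin-editing inhibitor, chr10:19015411-19015440, minus strand: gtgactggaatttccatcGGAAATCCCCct
Tnf, chr17:35202008-35202257, minus strand, without a match: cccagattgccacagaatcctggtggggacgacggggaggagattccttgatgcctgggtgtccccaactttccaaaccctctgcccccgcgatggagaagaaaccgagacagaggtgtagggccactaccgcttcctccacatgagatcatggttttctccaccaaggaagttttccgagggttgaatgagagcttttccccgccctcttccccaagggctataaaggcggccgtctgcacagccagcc
In Nfkbia the match lay at bases -29 to -20 from the start, in Nfkbie at -106 to -97, and in Rel overlapping matches covered -92 to -82. In Tnfaip3 a match lay at -12 to -3. The windows of Tnf and Rela had no match of these letters. Nfkb1, Relb and Nfkbiz were not matched to a window. These matches describe the letters in the windows and not binding.

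The cells studied were the microglia-like cells. Their clusters had at least 3 of 12 listed microglia genes, among them P2ry12, Tmem119 and Cx3cr1, at 100 CPM or more. No other cell type had 3 or more raised markers in them. The first rule alone does not set them apart, since 11 of these genes reached 100 CPM in the neutrophil-like cluster and 10 in the astroglial-like cluster. The clusters were made without the 10 genes and without the pathway lists. The microglia-like clusters held 21183 of 28655 cells kept in the 8 libraries, with 1357 to 3528 cells and 10051693 to 33492256 UMIs per library. Clusters 7 and 12, with 1578 and 888 cells, also had 12 microglia markers at 100 CPM or more. Their cells were shallow (median 1481.5 and 1953 UMIs), and these clusters were left unnamed and out of the microglia-like cells. Summed UMIs of the microglia-like cells were given per library as counts per 1000000 UMIs (CPM). These levels carry no further scaling, whereas the tests used counts scaled by edgeR (TMM). A log2 fold change can therefore differ from the ratio of the CPM levels printed beside it. All 12 microglia markers were above 20 CPM, and their summed level was 31630 to 37052 CPM in Ctrl and 19752 to 25839 CPM in the treated libraries. The summed mitotic genes were 10.5 to 23.1 CPM in Ctrl and 648 to 1145 CPM in the treated libraries. The summed neutrophil markers were 198 to 478 CPM and the monocyte markers 61.1 to 410 CPM over the 8 libraries. D2-3, which the study left out and in which 39.9% of kept cells were microglia-like, is given only where it changes a result. At most 7 cell barcodes were shared by any pair of libraries.

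The transcript of Nfkbia was 557, 1051 and 1148 CPM in Ctrl-1, Ctrl-2 and Ctrl-3, 1139, 1942 and 1498 CPM in D0-1, D0-2 and D0-3, and 1243 and 965 CPM in D2-1 and D2-2. D0-2 was the highest library and Ctrl-1 the lowest, and D0-1 lay just below Ctrl-3, so that the groups overlapped. Nfkbia encodes the inhibitor that retains the classical dimers and is itself rapidly induced by them.

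Nfkbiz, encoding an atypical nuclear IkappaB that acts on secondary response genes, was 75.6, 126 and 144 CPM in Ctrl, 145, 264 and 206 CPM in D0, and 217 and 150 CPM in D2. Both treated groups lay above Ctrl without overlap, by a margin of under 1 CPM in D0. Tnfaip3 was 84.2, 134 and 134 CPM in Ctrl, 131, 231 and 176 CPM in D0, and 162 and 127 CPM in D2. Its lowest library was Ctrl-1, and D0-1 and D2-2 lay just below Ctrl-2 and Ctrl-3.

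Tnf was 67.2, 233 and 232 CPM in Ctrl, 193, 381 and 389 CPM in D0, and 294 and 166 CPM in D2. Ctrl-1 was far below the other Ctrl libraries, and both treated groups overlapped with Ctrl. The same library was also the lowest for Nfkbia, Nfkbiz, Tnfaip3 and Relb, and it was the only Ctrl library counted with Cell Ranger 3.0.2, the version of the D0, D2-1 and D2-2 libraries, as the file headers give it.

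Among the subunits, Rel was 116, 86.5 and 101 CPM in Ctrl, 110, 157 and 123 CPM in D0, and 136 and 139 CPM in D2. Rela, encoding the main activating subunit of the classical dimer, was 55.4, 62.3 and 56.5 CPM in Ctrl, 40.7, 37.3 and 35.1 CPM in D0, and 43.0 and 32.7 CPM in D2. In unscaled CPM every treated library was below every Ctrl library for Rela and also for Nfkb1, whose protein pairs with it. The share of all genes whose libraries separate in this way is not given, here or for the other members. In the scaled edgeR fits Nfkb1 was not called, at -0.18 in D0 (adjusted p = 0.348) and -0.32 in D2 (adjusted p = 0.138). Nfkb1 was 160, 154 and 158 CPM in Ctrl, 116, 119 and 129 CPM in D0, and 134 and 101 CPM in D2.

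Nfkb2 was 11.3 to 14.4 CPM in Ctrl, 14.3 to 17.8 CPM in D0, and 14.7 to 20.4 CPM in D2. Relb, the noncanonical partner of the Nfkb2 product, was 33.5 to 50.04 CPM in Ctrl, 37.3 to 49.4 CPM in D0, and 39.6 to 52.6 CPM in D2. Its groups overlapped in each comparison. Nfkbie, encoding IkappaB epsilon, was 28.5, 26.0 and 27.8 CPM in Ctrl, 22, 28.9 and 23.6 CPM in D0, and 18.4 and 14.8 CPM in D2, with both D2 libraries below all others.

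**Figure D1:**
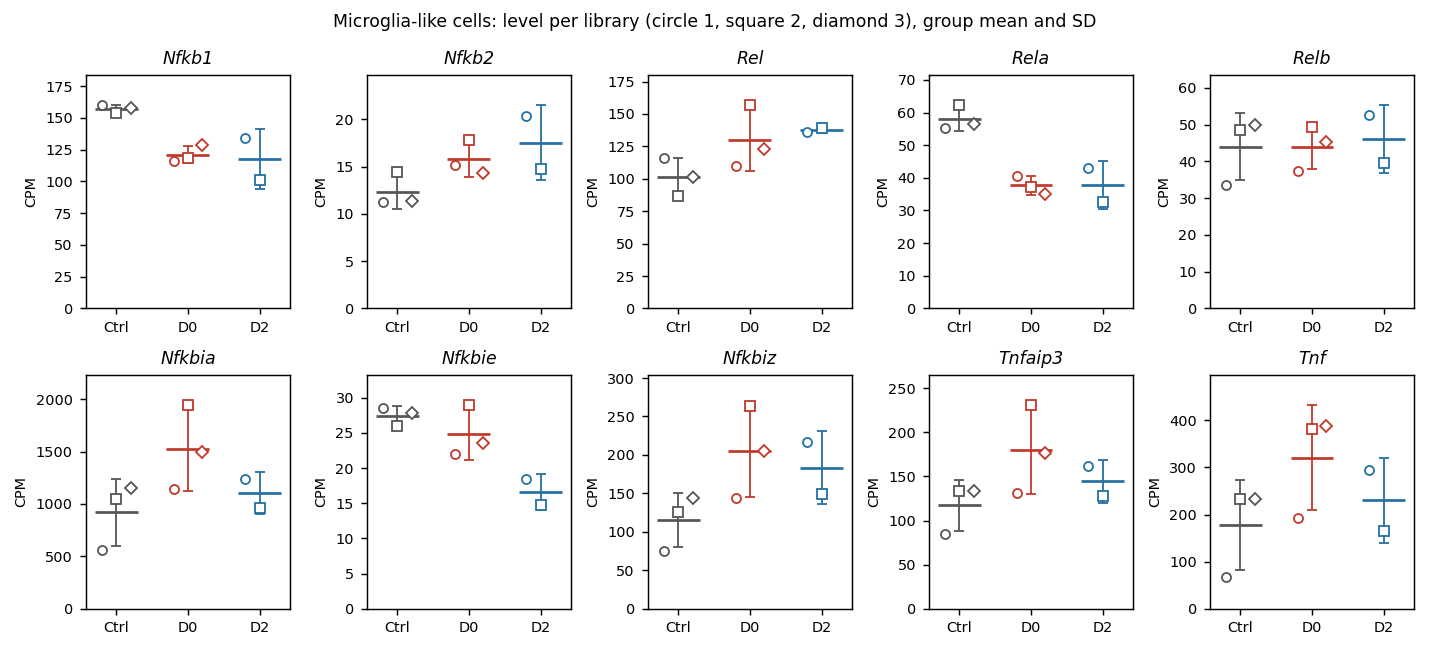
Level of each of the 10 genes in microglia-like cells in CPM (y axis) for the Ctrl, D0 and D2 libraries (x axis), with 1 symbol per library and the group mean and SD. In these unscaled levels Rela and Nfkb1 lie lower in every treated library than in Ctrl, although Nfkb1 was not called in the fits. Ctrl-1 (circle) is the lowest library for Nfkbia, Nfkbiz, Tnfaip3 and Tnf.

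Whether acute CSF1R inhibition altered these transcripts was tested by comparing D0 with Ctrl over libraries. Rel and Nfkbiz rose. Rel was higher by 0.57 on the log2 scale (SE 0.16, adjusted p = 0.0341, edgeR quasi-likelihood test) and Nfkbiz by 1.03 (SE 0.30, adjusted p = 0.0406). These were 2 of 10 members called, where 18.8% of the 12411 genes tested were called and 12.1% were called as higher. The median log2 fold change was 0.57 over the members and -0.05 over all genes tested.

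The other inhibitors and Nfkb2 had positive estimates that missed the threshold of 0.05. The log2 fold change was 0.82 for Tnfaip3 (SE 0.26, adjusted p = 0.0544), 0.93 for Nfkbia (SE 0.30, adjusted p = 0.0566) and 0.56 for Nfkb2 (SE 0.18, adjusted p = 0.0613). Rela had an estimate of -0.42 (SE 0.13, adjusted p = 0.0502). For Tnf the estimate was 1.04 with an SE of 0.47 (adjusted p = 0.153). Nfkb1, Relb and Nfkbie had estimates of -0.18, 0.20 and 0.07 (adjusted p = 0.348, 0.535 and 0.789). All these estimates come from the scaled counts and need not equal the ratios of the CPM levels given above.

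The fits above had no block for the replicate numbers. In an alternative fit the numbers of Ctrl and D0 were treated as pairs because of correlations in these same data. The labels do not say what the numbers mark. With the numbers as a block over all 8 libraries, D2-1 and D2-2 included, 4 members were called. They were Rel (0.56, adjusted p = 0.0457), Nfkbiz (1.05, adjusted p = 0.0301), Nfkbia (0.96, adjusted p = 0.0325) and Tnfaip3 (0.82, adjusted p = 0.0363), all by edgeR. Within the libraries counted with Cell Ranger 3.0.2, where Ctrl was Ctrl-1 alone and is assumed to vary like the other groups, the log2 fold change was 1.74 for Nfkbia (adjusted p = 0.0267), 1.72 for Nfkbiz (adjusted p = 0.0459), 2.54 for Tnf (adjusted p = 0.0316) and 0.45 for Rel (adjusted p = 0.304). A version term sets only Ctrl-2 and Ctrl-3 apart, so that D0 is again compared with Ctrl-1 alone. With this term the log2 fold change was 1.37 for Tnfaip3 and 0.44 for Rel, which is no separate check. Without Ctrl-1, Rel (0.64, adjusted p = 0.0366) and Rela (-0.49, adjusted p = 0.0359) were called, and the estimates were 0.78 for Nfkbiz (adjusted p = 0.0732), 0.65 for Nfkbia (adjusted p = 0.0798) and 0.64 for Tnf (adjusted p = 0.210). The call of Rel was lost without Ctrl-2 (adjusted p = 0.122), Ctrl-3 (adjusted p = 0.0939), D0-2 (adjusted p = 0.130) or D0-3 (adjusted p = 0.0588). The call of Nfkbiz was lost without Ctrl-1, without Ctrl-2 (adjusted p = 0.0831), Ctrl-3 (adjusted p = 0.0509), D0-2 (adjusted p = 0.156) or D0-3 (adjusted p = 0.0832). Both were lost without mitotic cells, at 0.66 for Rel (adjusted p = 0.0541) and 1.05 for Nfkbiz (adjusted p = 0.0809). They were also lost with D2-3 included (adjusted p = 0.492 and 0.152) and with the coarser clustering at Leiden resolution 0.3 (adjusted p = 0.0647 and 0.0852).

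In D2 against Ctrl, Rela and Nfkbie fell. Rela fell by 0.52 on the log2 scale (SE 0.15, adjusted p = 0.0407) and Nfkbie fell by 0.63 (SE 0.17, adjusted p = 0.0358). They were 2 of 10 members called, where 16.9% of all genes were called and 6.79% as lower. Rel had an estimate of 0.54 (adjusted p = 0.0648), Nfkb2 of 0.60 (adjusted p = 0.0744), Nfkbiz of 0.75 (adjusted p = 0.151), Nfkb1 of -0.32 (adjusted p = 0.138), Nfkbia of 0.34 (adjusted p = 0.520) and Tnf of 0.44 (adjusted p = 0.601). Relb (0.15, adjusted p = 0.695) and Tnfaip3 (0.38, adjusted p = 0.398) were also not called.

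The D2 calls rested on few libraries. Within the Cell Ranger 3.0.2 libraries the estimate was -0.36 for Rela (adjusted p = 0.411) and -0.59 for Nfkbie (adjusted p = 0.263). With D2-3 included it was -0.64 for Rela (adjusted p = 0.0745) and -0.76 for Nfkbie (adjusted p = 0.0573). The call of Rela was lost without Ctrl-2 (adjusted p = 0.152), Ctrl-3 (adjusted p = 0.121) or D2-2 (adjusted p = 0.242), and that of Nfkbie without Ctrl-2 (adjusted p = 0.0929), Ctrl-3 (adjusted p = 0.121), D2-1 (adjusted p = 0.0734) or D2-2 (adjusted p = 0.204). D0 and D2 were compared with the same Ctrl libraries.

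Between D2 and D0, 0% of the 12411 genes were called by edgeR, and none of the 10 members was. At an unadjusted p under 0.05 there were 875 genes, and DESeq2 called 16. Nfkbie was the member with the smallest p, at a log2 fold change of -0.69 (SE 0.17, unadjusted p = 0.00287, adjusted p = 0.670). The estimates for Nfkbia and Tnf were -0.59 and -0.60.

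**Figure D2:**
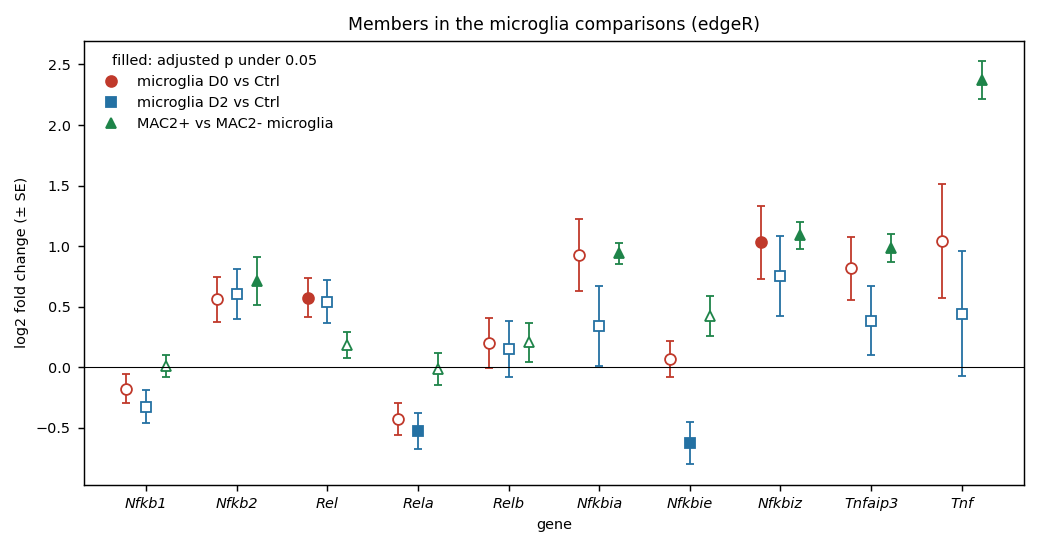
Log2 fold change with its SE (y axis) of each gene (x axis) in microglia-like cells for D0 against Ctrl (red circles), D2 against Ctrl (blue squares) and MAC2+ against MAC2- cells (green triangles), with filled symbols at an adjusted p under 0.05. Of the D0 values those of Rel and Nfkbiz are filled, of the D2 values those of Rela and Nfkbie, and of the MAC2 values those of Nfkb2, Nfkbia, Nfkbiz, Tnfaip3 and Tnf.

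Other genes of the pathway were taken from lists chosen with earlier results of these data known. Counts over these lists, beside the share of all genes, are therefore descriptions and no test of the pathway. Of 22 kinases and adaptors upstream of NF-kappaB, 1 rose and 2 fell in D0, or 13.6% called, below the 18.8% of all genes. Map3k8, a kinase held by the Nfkb1 precursor, had unscaled means of 30.2 CPM in Ctrl and 48.1 CPM in D0. Its log2 fold change in the scaled fit was 0.88 (adjusted p = 0.0212). Map3k14, the kinase of the noncanonical branch, and Myd88, the adaptor of Toll-like and interleukin-1 receptors, had log2 fold changes of -0.50 (adjusted p = 0.0133) and -0.43 (adjusted p = 0.0464). In D2 the 2 genes that fell of the 22 were again Map3k14 (-0.60, adjusted p = 0.0108) and Myd88 (-0.69, adjusted p = 0.0125), and none rose.

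Of 28 tested target genes, 12 rose and 0 fell in D0 (42.9% called, against 18.8% of all genes), with a median log2 fold change of 1.30 over the list. In D2, 8 rose and 1 fell (32.1% called, against 16.9% of all genes), with a median of 0.74. Il1b, encoding interleukin-1 beta, rose from 127 CPM in Ctrl to 878 CPM in D0 (log2 fold change 2.99, adjusted p = 0.000672), and the chemokine gene Cxcl10 from 91.2 to 630 CPM (2.98, adjusted p = 0.0117). Bcl2a1d, a survival gene whose reads may be shared with near-identical copies, rose from 9.51 to 44.9 CPM (2.45, adjusted p = 0.000123). In D2 these genes had log2 fold changes of 2.57, 2.38 and 2.20 (adjusted p = 0.00235, 0.0365 and 0.000402), and Cflar, an inhibitor of death receptor signaling, was at -0.46 (adjusted p = 0.0229). Summed over the list, the level was 3846, 9398 and 10735 CPM in Ctrl, 9798, 24683 and 19289 CPM in D0, and 14433 and 11385 CPM in D2, with Ctrl-1 again the lowest.

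Of 20 immediate-early and heat shock genes, which also respond to tissue digestion, 4 rose and 1 fell in D0 and 1 rose and 2 fell in D2 (25% and 15% called, against 18.8% and 16.9% of all genes). Their summed level was 13325, 17696 and 18975 CPM in Ctrl, 11602, 17506 and 16342 CPM in D0, and 14161 and 12089 CPM in D2. The part of cell handling in the Nfkbia and Tnf levels was not tested. Of 13 genes of TNF receptors, related ligands and shedding, 2 rose in D0 and 3 in D2 (15.4% and 23.1% called), among them Tnfsf13b, encoding the B cell factor BAFF (0.77, adjusted p = 0.0129, and 0.65, adjusted p = 0.0405). Of 13 other inhibitors, 2 rose in each comparison (15.4% called), and in D2 Tnip2, which binds the Tnfaip3 protein, was at 0.49 (adjusted p = 0.0390). All 10 mitotic genes tested rose in both.

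To see how the level was spread over cells, each cell was thinned to 2000 UMIs and the share of cells with a UMI of the gene was counted. For Nfkbia this share was 40.1, 49.0 and 51.1% in Ctrl, 58.5, 73.0 and 63.8% in D0, and 65.5 and 46.4% in D2. Every D0 library was above every Ctrl library, by 18.4 points in the mean (exact permutation test, two-sided, p = 0.1, the smallest that 3 against 3 libraries allow, Benjamini-Hochberg adjusted p of at least 0.4 over 20 tests). For Tnf the share was 6.41, 14.3 and 14.3% in Ctrl, 10.9, 23.0 and 22.8% in D0, and 20.3 and 9.82% in D2, and the groups overlapped. For Nfkb1 it was 27.3% ± 0.619 (SD, n = 3) in Ctrl and 21.7% ± 1.62 in D0, and for Rela 11.3% ± 1.17 and 7.72% ± 0.598, without overlap for either gene (exact permutation p = 0.1).

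Tnf UMIs were seen in a small share of cells at this depth. Over the 8 libraries 3100 of 20277 microglia-like cells had a Tnf UMI after thinning (15.2% as the mean of libraries), against 13 of 674 endothelial-like cells (1.54%) and 0 of 208 mural-like cells, which allows a share of up to 1.44%. The median depth before thinning was 5137 UMIs in endothelial-like, 5622 in mural-like and 7148 in microglia-like cells. The share with a Tnf UMI was thus above that seen in endothelial-like and mural-like cells. Another non-myeloid cluster, the shallow cluster 17 led by Ttr and Enpp2 (median 1008 UMIs), had Tnf at 131 CPM in D0-3. Microglia-like cells of that library had 389 CPM, and the source of the Tnf UMIs in cluster 17 was not tested. The 10% of cells with the most Tnf UMIs held 75.7 to 100% of them in each library, and those with the most Nfkbia UMIs held 38.3 to 56.8%, a concentration that also grows as a gene gets rarer.

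Microglia-like cells that carry galectin-3 (MAC2, gene Lgals3) were compared with the other microglia-like cells of the same library. The study set MAC2+ cells apart over all its microglial clusters, so its set was wider than the one used here. MAC2+ cells were those with log-normalized Lgals3 over 0.798, the mean plus 1 SD of the myeloid cells, and 1 Lgals3 UMI was enough in any cell under 8187 UMIs. This lay above the median depth of MAC2- cells in all libraries but D0-2 and D0-3. MAC2+ cells numbered 23, 10 and 25 in Ctrl, 125, 175 and 34 in D0, and 145 and 107 in D2, or 0.471 to 7.89% of microglia-like cells. Over all kept myeloid clusters they numbered 80, 135 and 86 in Ctrl, 279, 479 and 229 in D0, and 288 and 341 in D2. The values below thus cover only a part of the MAC2+ myeloid cells. Tnf was 616 to 1975 CPM in MAC2+ cells with a median of 1042 CPM, and 63.3 to 367 CPM in MAC2- cells with a median of 223 CPM. It was higher in the MAC2+ cells of 8 of 8 libraries, and the ranges did not overlap.

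Tnf rose by 2.37 on the log2 scale (SE 0.16, adjusted p = 1.08e-11, edgeR with the library as a block), as did 4 other members. They were Nfkbiz (1.09, SE 0.11, adjusted p = 1.78e-08), Nfkbia (0.94, SE 0.09, adjusted p = 3.30e-09), Tnfaip3 (0.98, SE 0.11, adjusted p = 2.18e-07) and Nfkb2 (0.71, SE 0.20, adjusted p = 0.0100). Each was higher in 8 of 8 libraries. These were 5 of 10 members called, all as higher, where 18.8% of 11688 genes were called and 9.61% as higher. The median log2 fold change was 0.57 over the members and -0.04 over all genes. Over 20 alternatives Tnf, Nfkbiz, Nfkbia and Tnfaip3 were called in 20 and Nfkb2 in 17.

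Nfkbia was 1318 to 2846 CPM in MAC2+ and 552 to 1915 CPM in MAC2- cells, with medians of 2204 and 1091 CPM. Nfkbiz was 222 to 437 CPM against 74.6 to 259 CPM, and Tnfaip3 178 to 372 CPM against 83.2 to 228 CPM. The ranges over libraries overlapped, while within each library the MAC2+ value was higher. Nfkb2 was 17.1 to 89.2 CPM against 11.2 to 20.2 CPM, where the highest value came from 7 UMIs in the 10 MAC2+ cells of Ctrl-2.

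No difference was called for the other 4 subunit genes. The log2 fold change was 0.01 for Nfkb1 (adjusted p = 0.977), -0.01 for Rela (adjusted p = 0.976), 0.18 for Rel (adjusted p = 0.262) and 0.21 for Relb (adjusted p = 0.419). Nfkbie had 0.42 (adjusted p = 0.0729) and was higher in 7 of 8 libraries. Among other genes, 25 of 28 target genes rose and 0 fell (89.3% called, against 18.8% of all genes), with a median of 0.97. The list was chosen with earlier results of these data known, so this count is a description. Cxcl2, a neutrophil chemoattractant, was at 264 CPM in MAC2+ and 56.1 CPM in MAC2- cells (2.34, adjusted p = 6.75e-11), and Il12b, encoding an interleukin-12 subunit, at 69.8 and 7.34 CPM (2.76, adjusted p = 0.000143). Tnfsf9, the ligand of the receptor 4-1BB, was at 265 and 52.8 CPM (2.15, adjusted p = 3.86e-08). Of 13 other inhibitors 4 rose and 3 fell, with Nfkbib, encoding IkappaB beta, at 0.60 (adjusted p = 0.00222) and the deubiquitinase gene Cyld at -0.33. Of 22 kinases and adaptors only Tab2 was called, at -0.40.

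Immediate-early genes moved with the MAC2 label as well. Of 20, 11 rose and 2 fell, with Egr1 at 1.00 and Dusp1 at 0.89 and the heat shock genes Hspa1b and Hspa1a at -0.60 and -0.39. Their summed level was 15632 to 21057 CPM in MAC2+ and 11310 to 18956 CPM in MAC2- cells. It was higher in MAC2+ cells of each library but D0-3 (15632 against 16358 CPM). The median UMI count of MAC2+ cells was higher in D0-1 (7983 against 5338) and D0-3 (14124 against 10273). It was also higher, by less, in Ctrl-1, D0-2 and D2-1, and lower in Ctrl-2, Ctrl-3 and D2-2. Cluster 3 held 10.0 to 28.0% of MAC2+ cells in Ctrl and 32.4 to 57.6% in the treated libraries, against 1.63 to 3.90% and 17.2 to 27.4% of MAC2- cells. Without cluster 3, Tnf (1.71, adjusted p = 3.41e-09), Nfkbiz (0.67, adjusted p = 0.000623), Tnfaip3 (0.63, adjusted p = 0.000916) and Nfkbia (0.55, adjusted p = 8.04e-05) were still called and Nfkb2 was not (0.55, adjusted p = 0.144). The part of digestion or of depth in the difference was not tested.

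**Figure D3:**
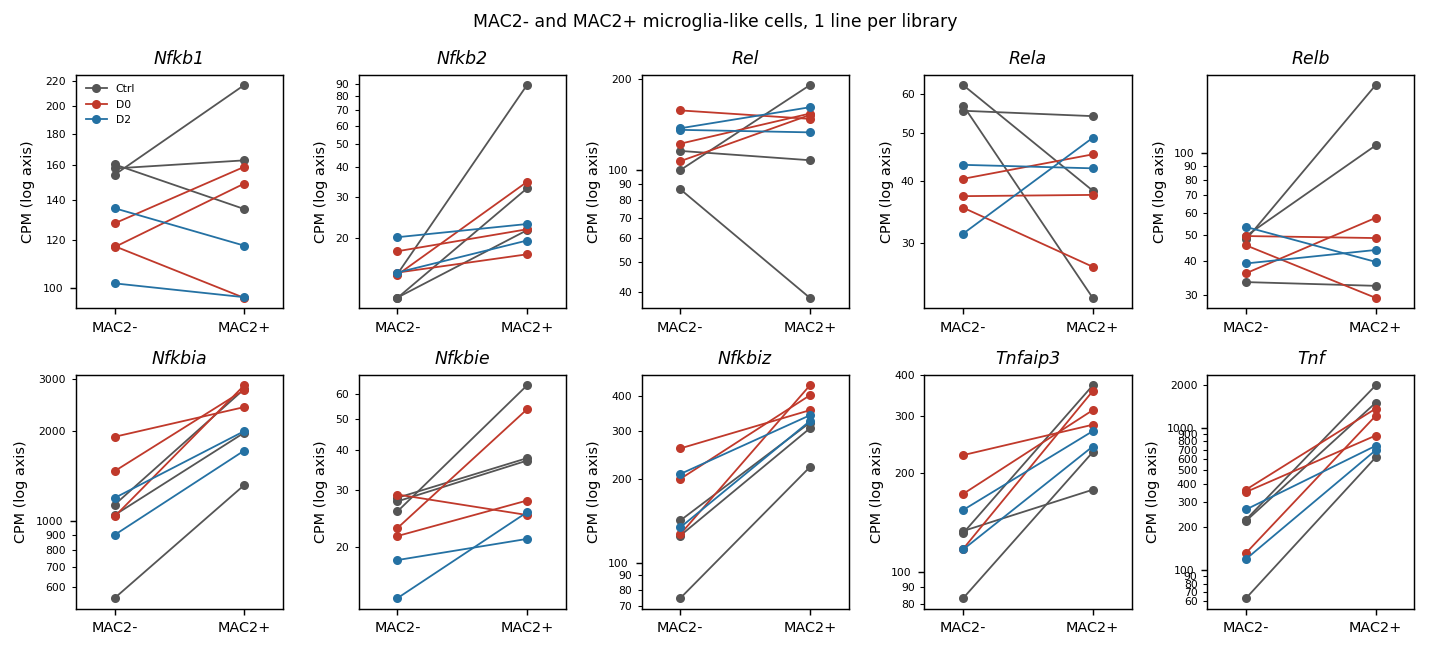
Level in CPM on a log axis (y) of each gene in MAC2- and MAC2+ microglia-like cells (x), with 1 line per library in grey for Ctrl, red for D0 and blue for D2. The lines of Nfkb2, Nfkbia, Nfkbiz, Tnfaip3 and Tnf go up in 8 of 8 libraries, while those of Nfkb1, Rel and Relb go up in 4.

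The microglia-like cells fell into 8 clusters, and the inhibitor genes and Tnf differed among them, which is given as a description since the clusters come from the same cells. Cluster 3, led by Ccl12, Il1a, Tnf, Arl5c, Dusp2 and Gadd45b, had the highest Tnf level of the microglia-like clusters in 8 of 8 libraries. In Ctrl-2 the unnamed cluster 12 was higher, at 733 CPM against 706 CPM in cluster 3. The Tnf level of cluster 3 was 263 CPM in Ctrl-1 and 916 CPM in Ctrl-3. Its mean over libraries was 527 CPM (SD 230), against 84.1 CPM in cluster 1 and 104 CPM in cluster 5. Nfkbiz was also highest in cluster 3 in 8 of 8 libraries and Nfkbia in 7 of 8, with a mean of 1832 CPM against 733 CPM in cluster 1.

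Cluster 3 made up 1.71 to 4.08% of the microglia-like cells of Ctrl libraries, 18.9 to 27.0% of those of D0 libraries and 21.7 to 28.8% of those of D2 libraries. The mitotic clusters 8 and 14 were at most 0.248% in Ctrl. A change in the sum over all microglia-like cells therefore includes the change in these shares. Within single clusters, D0 against Ctrl gave log2 fold changes of 0.40 to 0.55 for Rel, 0.32 to 1.24 for Nfkbiz, -0.03 to 1.23 for Nfkbia, -0.10 to 0.85 for Tnfaip3, -0.43 to -0.17 for Rela and -0.28 to 1.16 for Tnf over 6 clusters. Nfkbiz was called in cluster 1 (adjusted p = 0.0203) and cluster 5 (adjusted p = 0.00478), Nfkbia in cluster 1 (adjusted p = 0.00602) and Tnfaip3 in cluster 1 (adjusted p = 0.0271). In D2 against Ctrl, Rela was at -0.49 to -0.28 and Nfkbie at -1.08 to -0.42, Nfkbiz was called in cluster 5 (1.41, adjusted p = 0.00702), and Tnf in cluster 6 was lower (-1.63, adjusted p = 0.0234).

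Across the cell classes of the sort, each gene had its own order of levels. Means and SDs pool the Ctrl, D0 and D2 libraries of a class, so that the SD includes differences between groups. The mix differed among classes: of the Ctrl libraries, neutrophil-like cells came from Ctrl-2 only, and cluster 15 had none. The order is a description without a test. Nfkbia was highest in neutrophil-like cells, at 2500 CPM (SD 446, n = 6 libraries), and was 1406 CPM (SD 250) in cluster 10, which expressed H2-Aa and Ccr2, 1316 CPM (SD 485) in cluster 9, led by Pf4, Ms4a7 and Mrc1, 1193 CPM (SD 403, n = 8) in microglia-like and 969 CPM (SD 265) in endothelial-like cells. These last 4 neighbors differed by less than their spread. Cluster 15, which expressed the granule genes Ngp and Camp, had 386 CPM, and mural-like cells had 195 CPM (SD 49). Lymphoid-like cells, from D0-2 and D0-3 only, had 387 CPM, but with a finer clustering (Leiden resolution 1.0) they had 1593 CPM (SD 1162, n = 5) and their place in the order was not settled. Their Nfkbiz and Tnfaip3 levels also moved with the clustering, from 56.5 to 265 CPM and from 84.6 to 202 CPM. With the finer clustering the cluster led by Pf4, Ms4a7 and Mrc1 had Nfkbia at 956 CPM (SD 506), below the 1197 CPM of microglia-like cells.

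Nfkbiz was 729 CPM (SD 118) in neutrophil-like cells, 340 CPM (SD 123) in cluster 10, 275 CPM (SD 76) in cluster 9, 166 CPM (SD 60) in microglia-like and 28.3 CPM in endothelial-like cells. Tnfaip3 ran from 246 CPM (SD 54) in neutrophil-like through 168 CPM in cluster 9 and 147 CPM (SD 43) in microglia-like cells to 15.5 CPM in mural-like cells. Tnf had another order, with 268 CPM (SD 142) in cluster 9 and 244 CPM (SD 109) in microglia-like cells at the top, which did not differ beyond their spread, then 158 CPM (SD 91) in neutrophil-like cells, whereas the endothelial-like level was 12.4 CPM.

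Of the subunits, Rel was 340 CPM (SD 76) in cluster 10, 173 CPM (SD 45) in neutrophil-like, 141 CPM (SD 47) in cluster 9 and 121 CPM (SD 23) in microglia-like cells, and 15.5 CPM in mural-like cells. Nfkb1 was likewise highest in cluster 10, at 235 CPM (SD 30), with 134 CPM (SD 22) in microglia-like cells. Rela was 71.0 CPM (SD 11.2) in endothelial-like, 65.3 CPM in neutrophil-like and 45.4 CPM in microglia-like cells, and 41.7 CPM in cluster 9. Nfkbie was 69.6 CPM in neutrophil-like and 63.9 CPM in cluster 10, against 23.8 CPM in microglia-like and 5.12 CPM in endothelial-like cells.

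The classes were not free of each other's transcripts. Neutrophil-like cells had S100a8 at 50097 CPM and also P2ry12 at 319 CPM, and endothelial-like cells had Cldn5 at 6024 CPM. The marker levels of cluster 9 differed between the groups. The 9 markers of border-associated macrophages summed to 4194, 2470 and 4798 CPM in its Ctrl cells and to 91.6 to 570 CPM in its treated cells, while the microglia markers summed to 11774 to 18102 CPM in all of them. In D0 and D2 the cluster thus lacked most of the signal of its marker genes, and it is not named as a cell type. With the finer clustering, the cluster led by Pf4, Ms4a7 and Mrc1 held 163, 63 and 118 cells in Ctrl, 82, 63 and 30 in D0, and 49 and 47 in D2. A separate microglia-like cluster led by Igf1, Ifi27l2a and Cd36 held 2, 14 and 17 cells in Ctrl, 75, 292 and 87 in D0, and 112 and 163 in D2. Comparisons of conditions in cluster 9 may therefore set different cells against each other, which was not tested. Over the 10 classes the genes most like Nfkbia in log2(CPM + 10) were Sdcbp (Pearson r 0.92), Cd274 (0.89), Gpr137b (0.88), Med11 (0.86) and Nfe2l2 (0.86), and those most like Tnf were Tnfaip3 (0.92), Gm46224 (0.92), Card9 (0.91), Nckap1l (0.91) and Cmtm7 (0.91). The classes share their libraries, so these are descriptions.

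**Figure D4:**
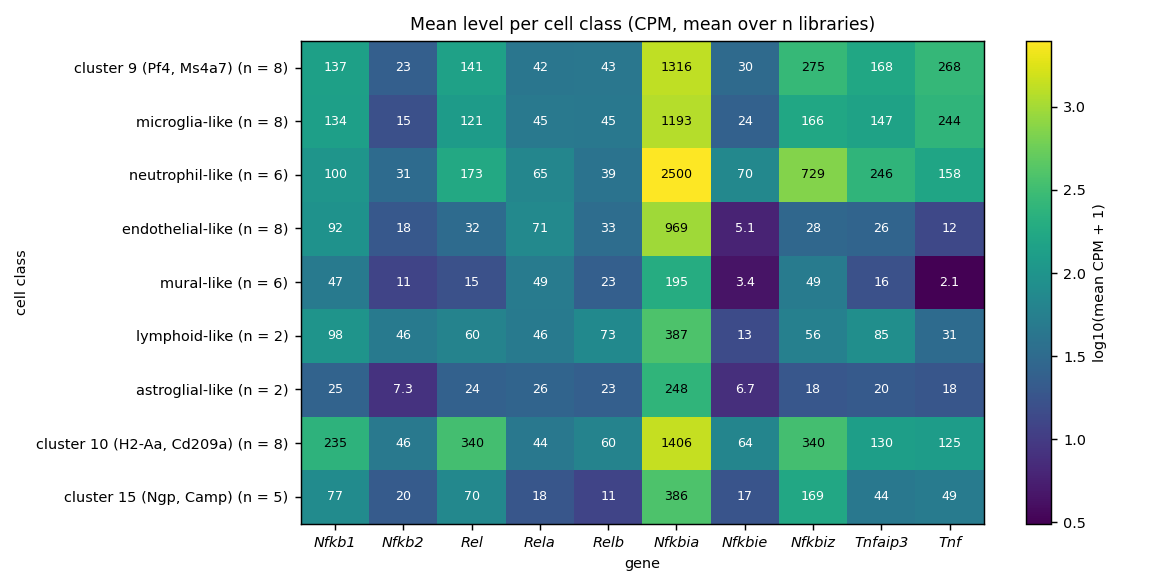
Mean level in CPM, printed in each cell and colored as log10(mean CPM + 1), of the 10 genes (x axis) in 9 cell classes (y axis, with n the number of libraries). Nfkbia, Nfkbiz and Tnfaip3 are highest in neutrophil-like cells, Rel and Nfkb1 in cluster 10, and Tnf in cluster 9 and microglia-like cells.

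The conditions were also compared within the other classes. In cluster 9, Rel (0.97, SE 0.25, adjusted p = 0.0388) and Nfkbiz (0.65, SE 0.16, adjusted p = 0.0371) were higher in D0 than in Ctrl. They were 2 of 10 members, where 7.59% of 8904 genes were called and 4.13% as higher. The difference in macrophage markers noted above lay between the same groups, so these values need not be a change within 1 population. Both calls were kept when D0-1 was left out and lost when any other single library was (adjusted p of 0.0593 to 0.168 for Rel and 0.0524 to 0.123 for Nfkbiz), and the part of the change in cells was not tested. In D2, 0 of 10 members were called there (1 at an unadjusted p under 0.05), with 3.64% of genes called. In endothelial-like cells none of 8 tested members was called in either comparison, with 0.0122% and 0.0608% of genes called, and Nfkbia had log2 fold changes of 0.63 in D0 (unadjusted p = 0.00400, adjusted p = 0.821) and 0.84 in D2 (unadjusted p = 0.000936, adjusted p = 0.222). In cluster 10 none of 7557 genes was called by edgeR in either comparison, with 881 and 823 at an unadjusted p under 0.05, and in mural-like cells 0 of 4 tested members were called, with 0.0235% and 0.0939% of genes called.

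Whether a change in microglia-like cells differed from that in another class was tested with an interaction term. Nfkbiz was the only member called in any of these tests, in which 4.31% (D0) and 3.86% (D2) of genes were called for cluster 9, 2.76% and 2.87% for cluster 10, 3.06% and 2.69% for endothelial-like and 1.1% and 1.16% for mural-like cells. In D2 its change was lower in cluster 9 than in microglia-like cells by 1.09 on the log2 scale (estimate -1.09, SE 0.29, adjusted p = 0.0458). The level in cluster 9 was 243, 233 and 285 CPM in Ctrl and 202 and 175 CPM in D2, where the microglia-like level was higher than in Ctrl. The macrophage markers of cluster 9 differed between the same groups, with sums of 2470 to 4798 CPM in Ctrl and of 242 and 368 CPM in D2, and the part of this change in cells was not tested. In D0 the change of Nfkbiz was lower in cluster 10 than in microglia-like cells (estimate -1.07, SE 0.26, adjusted p = 0.0271). Without Ctrl-1 the first estimate was -0.80 (adjusted p = 0.224) and without D2-1 -0.89 (adjusted p = 0.203), and it was also not called without Ctrl-2 (adjusted p = 0.0535), Ctrl-3 (adjusted p = 0.0552) or D0-3 (adjusted p = 0.0529). For cluster 10, the call was lost without Ctrl-2 (adjusted p = 0.0691), Ctrl-3 (adjusted p = 0.142), D0-1 (adjusted p = 0.120) or D0-2 (adjusted p = 0.145).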

How the data were processed

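The deposited files held raw UMI counts per gene and cell barcode that the authors made with Cell Ranger (version 3.1.0 per the submitters' processing notes, 3.0.2 for 6 libraries per the file headers) on mm10, from 9 libraries with 20257894 to 61230741 UMIs in all. As in the study, a barcode entered if it had 500 to 20000 UMIs, no fewer than 200 genes and no more than 10% of UMIs from mitochondrial genes. They were clustered with scanpy 1.11.5 (10 principal components, 20 neighbors, Leiden resolution 0.6) without the 10 genes and the pathway lists, and clusters were named from fixed marker lists. Cell types were rebuilt here, since the files used here gave no annotation. Scrublet marked 47 cells (0.164%), too few to rely on its calls, and no doublets were removed. Of the matrix columns, 0 could not be assigned to a library.

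Counts were summed per library and class and tested with edgeR 4.0.16 in R 4.3.3 (TMM scaling, filterByExpr, quasi-likelihood F test, Benjamini-Hochberg over all genes tested, called at adjusted p under 0.05). Libraries were the replicates, and all 3 groups entered 1 fit. Classes needed at least 20 cells in a library. Shares were tested with a two-sided exact permutation test over libraries after thinning. Limits from counts of 0 and all shares cover counting error only and use 3 counts.

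The replicate numbers of the labels were checked by the correlation of library deviations from group means over genes. Same-numbered Ctrl and D0 libraries gave r of 0.39, 0.19 and 0.18, above 0.1 in all 3 pairs, although Ctrl-3 correlated with D0-2 at 0.23. They were treated as paired only in the alternative fit with the replicate block, and the main fits of the groups had no block. The labels do not say what the numbers mark, and D2-1 and D2-2 entered the same block by their numbers. On data simulated for D0 against Ctrl (12223 genes), 61.6% of genes changed 2-fold, 6.19% of those changed 1.5-fold and 0.0582% of unchanged genes were called. Only 99 genes were changed 2-fold and 97 were changed 1.5-fold, far fewer than the 2332 called in the data. Adjusted p-values depend on that share, so the recovery in the data can differ.

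The members and lists were chosen with earlier results of these data known. Named were the 10 members and, from each other list and comparison, up to 3 called genes with the largest rise and 3 with the largest fall at 20 CPM or more in the higher group, of which the text gives those most tied to the pathway. For Nfkbia and Tnf, the 5 genes with the highest Pearson r over classes among those with at least 20 CPM in a class were named. Alternatives were DESeq2 1.42.0, other scalings, filters, clusterings, cell sets and thinning, a version term and leaving out libraries. Promoter windows came from a RefSeq table.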

Additional observations from a re-analysis of the deposited data

Results flagged for a closer look

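The MAC2+ minus MAC2- difference of Nfkb2 in Ctrl-2 was 2.04 on the log2 scale and stood apart from those of the other 7 libraries by Dixon's test, where chance marks about 1 in 20 groups and 10 genes were looked at. Its MAC2+ value came from 7 UMIs in 10 cells.

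The D2 change of Nfkbiz differed between cluster 9 and microglia-like cells, with an interaction estimate of -1.09 (adjusted p = 0.0458). The call was lost without Ctrl-1 (adjusted p = 0.224), Ctrl-2, Ctrl-3, D0-3 or D2-1 (adjusted p = 0.203), and the border-associated macrophage markers of cluster 9 were at 2470 to 4798 CPM in Ctrl and at 242 and 368 CPM in D2. Its D0 change differed between cluster 10 and microglia-like cells, with an estimate of -1.07 (adjusted p = 0.0271), a call lost without Ctrl-2, Ctrl-3, D0-1 or D0-2 (adjusted p of 0.0691 to 0.145).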

How the results depend on the processing

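In D0 against Ctrl, 2332 genes and 2 members were called. The genes were 1312 when the software version was a term, 714 within version 3.0.2, 452 with D2-3 included, 1277 after thinning, 873 without mitotic cells, 300, 229, 299, 327, 235 and 434 within clusters 1 to 6, and 1176 to 2436 when leaving out 1 library. The members were 6 with DESeq2, 6 without the filter on low counts, 4 with the replicate block, the version term, all kept myeloid clusters or Leiden resolution 1.0, 1 in cluster 5, 0 with D2-3, without mitotic cells, at Leiden resolution 0.3 or in clusters 2, 3, 4 and 6, and 0 to 4 when leaving out 1 library.

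In D2 against Ctrl, 2093 genes and 2 members were called. The genes were 1043 with the version term, 642 within version 3.0.2, 1197 with D2-3, 1306 after thinning, 1040 without mitotic cells, 369, 425, 142, 273, 205 and 832 within clusters 1 to 6, and 1070 to 2883 when leaving out 1 library. The members were 4 with DESeq2 or without the filter, 1 with the version term, no upper UMI limit, all myeloid clusters, without the top 4% of Scrublet scores, at Leiden resolution 1.0, with all 3000 variable genes or in clusters 5 and 6, 0 within version 3.0.2, with D2-3, after thinning, without mitotic cells or in clusters 1 to 4, and 0 to 3 when leaving out 1 library. The same-numbered Ctrl and D2 libraries were not taken as pairs (r of 0.02 and 0.05), although the block joined them by number. The replicate block gave 0 members, with Rela at -0.55 (adjusted p = 0.0540) and Nfkbie at -0.63 (adjusted p = 0.0624). Tnf was reversed to -1.63 in cluster 6 and Tnfsf13b to -0.0294 in cluster 3.

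Between D2 and D0 the genes called were 16 with DESeq2 and 18 without the filter. For MAC2 the 2201 genes became 797 without the library block, 1007 with the replicate block in its place, 519 in Ctrl only, 1375 in D0 only, 772 after thinning, 6382 over all myeloid clusters and 1565 to 2119 without 1 library, and the 5 members became 9 over all myeloid clusters and 4 to 6 without 1 library. Over all myeloid clusters Cyld (0.0170), Hspa1a (0.75) and Hspa1b (0.68) reversed. The 2 members called in other classes were 7 without the filter and 0 to 6 without 1 library, and the 2 interactions 6 and 0 to 3. Without 1 library, the difference in the share of cells with a UMI in D0 ran from 14.4 to 21.7 points for Nfkbia and 4.63 to 11.3 for Tnf, and in D2 from -0.350 to 18.7 and -1.85 to 8.67. The within-cluster runs and 3 MAC2 runs (D0 only, without cluster 3, without mitotic cells) were chosen after seeing the data, and the cause of these shifts was not tested. Groups of 2 or 3 libraries limit all calls.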
